A study of Rattus norvegicus with 5 samples.

Results

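Nuclear hormone receptors were followed through maps of N6-methyladenine (6mA) enrichment in rat Astrocytes, Neurons and neural stem cells (NSCs). The 10 genes were Vdr, Rarb, Thrb, Nr1h5, Rora, Rorb, Esrrg, Nr3c1, Nr3c2 and Esr1, of 23553 gene names in the region lists. A region belonged to a gene when the deposited annotation named that gene in its promoter, upstream 2 kb, exon, intron, downstream 2 kb or gene body column. DNA was sonicated, denatured, immunoprecipitated with an antibody against 6mA and sequenced (MeDIP-seq). Astrocytes and Neurons are labelled by cell type alone, with no strain, age or culture given. The NSCs are the SCR022 line, adult rat hippocampal stem cells. No group carries a stated mutation or treatment. Each cell type gave 1 immunoprecipitated library, and input DNA was sequenced as a separate sample for Neurons and NSCs. Regions of DNA say nothing of RNA, so the cell type labels could not be checked against marker expression here.

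Nuclear hormone receptors are transcription factors that bind small fat-soluble ligands, or act without a known one, and sit on short DNA repeats near their target genes. The receptors of vitamin D, retinoic acid and thyroid hormone pair with a retinoid X receptor, steroid receptors pair with themselves, and the ROR receptors bind as single molecules. In brain they are known for timing neuronal and glial differentiation and for carrying hormone signals, glucocorticoids in the hippocampus among them. 6mA is an adenine modification well known in bacteria, while its level in mammalian DNA is debated. An antibody peak is therefore called enrichment here, and no other measure of 6mA was used.

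The immunoprecipitated libraries held 13866225 uniquely mapped reads in Astrocytes, 13930646 in Neurons and 13785430 in NSCs, so depth was close across cell types. Each cell type had 1 such library, so no spread between replicates is known and no test was possible. Peaks are the authors' calls of each immunoprecipitated library over input. Peak folds and scores are the authors' own, a score being 10 times the −log10 of a p-value, with 50.0 as the lowest score listed. Peak folds of different cell types stand beside each other as description, since each list was called alone. Positions are those of the files, whose genome build the sources used here do not give.

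Regions classed as promoter were found for Esrrg, Nr3c1 and Nr3c2, and for none of the other 7 receptor genes. Promoter sequence is shown for Esrrg, which had a promoter peak in Astrocytes alone, and for Vdr and Nr1h5 as 2 of the 7 without one. The sequences come from RefSeq on GRCr8, where 9 of the 10 genes have an entry, and cover the 250 bases before the transcription start, 5′ to 3′ on the gene's strand. Capitals mark CG dinucleotides, the sites that make up CpG islands. Esrrg has 4 listed starts, and the one shown lies 220.9 kb from the end of the gene, close to the 220.8 kb that its regions span in the files. It lies at chr13:102095775-102096024 (plus strand), the Vdr promoter at chr7:130916758-130917007 (minus strand) and the Nr1h5 promoter at chr2:193175699-193175948 (minus strand), all GRCr8 positions.
Esrrg: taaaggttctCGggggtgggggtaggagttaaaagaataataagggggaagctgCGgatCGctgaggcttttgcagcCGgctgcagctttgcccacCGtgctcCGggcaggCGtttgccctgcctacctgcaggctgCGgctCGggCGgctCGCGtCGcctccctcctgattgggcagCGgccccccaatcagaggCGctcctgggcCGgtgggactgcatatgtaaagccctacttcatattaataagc
Vdr: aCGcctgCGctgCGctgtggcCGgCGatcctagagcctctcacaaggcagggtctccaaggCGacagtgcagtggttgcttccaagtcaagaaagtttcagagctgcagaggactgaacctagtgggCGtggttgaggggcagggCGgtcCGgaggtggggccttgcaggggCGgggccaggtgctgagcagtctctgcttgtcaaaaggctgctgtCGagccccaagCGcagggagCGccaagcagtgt
Nr1h5: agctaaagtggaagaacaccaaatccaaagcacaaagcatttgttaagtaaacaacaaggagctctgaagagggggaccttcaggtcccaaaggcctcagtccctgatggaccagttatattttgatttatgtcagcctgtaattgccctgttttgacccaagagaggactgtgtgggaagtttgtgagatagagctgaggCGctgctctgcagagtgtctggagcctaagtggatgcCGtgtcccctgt
Esrrg holds 16 CG dinucleotides in this window, Vdr 13 and Nr1h5 2, against a median of 5 over 33469 promoters. The receptor half-site AGGTCA, searched on both strands as its 6 letters, is in none of these 3 windows, whereas 14.1% of all promoters of the same length hold it. That says only that these letters are not in these windows. Among the other Esrrg starts, the window at chr13:101755510-101755759, not shown, holds AGGTCA.

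Peaks were counted first, to see how enrichment was spread over the receptor genes. All 10 receptor genes held a peak in Astrocytes, where 43.1% of 20950 named protein-coding genes did. All 10 held a peak in Neurons, against 46.1% of protein-coding genes. In NSCs 9 of 10 did, against 42.8%, and the gene without a peak was Vdr. Receptor genes are long, with a median RefSeq length of 347 kb against 17.6 kb for protein-coding genes. Among 8247 genes at least as long as the shortest of the 10 (26.3 kb), 73.9% had a peak in Astrocytes, 77.2% in Neurons and 74.1% in NSCs. The counts of receptor genes with a peak are read against these shares, which are high for any long gene.

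The receptor genes held 138 of 116091 peaks in Astrocytes, 147 of 137579 in Neurons and 139 of 121816 in NSCs. Counts per gene were similar across cell types for most of the 10. Thrb had 21, 26 and 27 peaks in Astrocytes, Neurons and NSCs, Esr1 20, 18 and 20, Nr3c2 15, 17 and 17, and Esrrg 14, 17 and 17. Rarb had 5, 6 and 4 peaks in the same order of cell types, Rora 3, 4 and 4, and Rorb 4, 3 and 5. Vdr had 2, 1 and 0 peaks, and Nr1h5 had 5, 4 and 2. Introns held 97.1% of the receptor peaks in Astrocytes, 99.3% in Neurons and 98.6% in NSCs, against 88.2%, 87.7% and 88.3% of all peaks that name a gene. The receptor shares count introns of the receptor genes, and the other shares count introns of any gene named. Neither is matched on gene length, and the receptor shares include the long Nr3c1 annotation described below. Whether the difference goes with gene length was not tested.

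**Figure D1:**
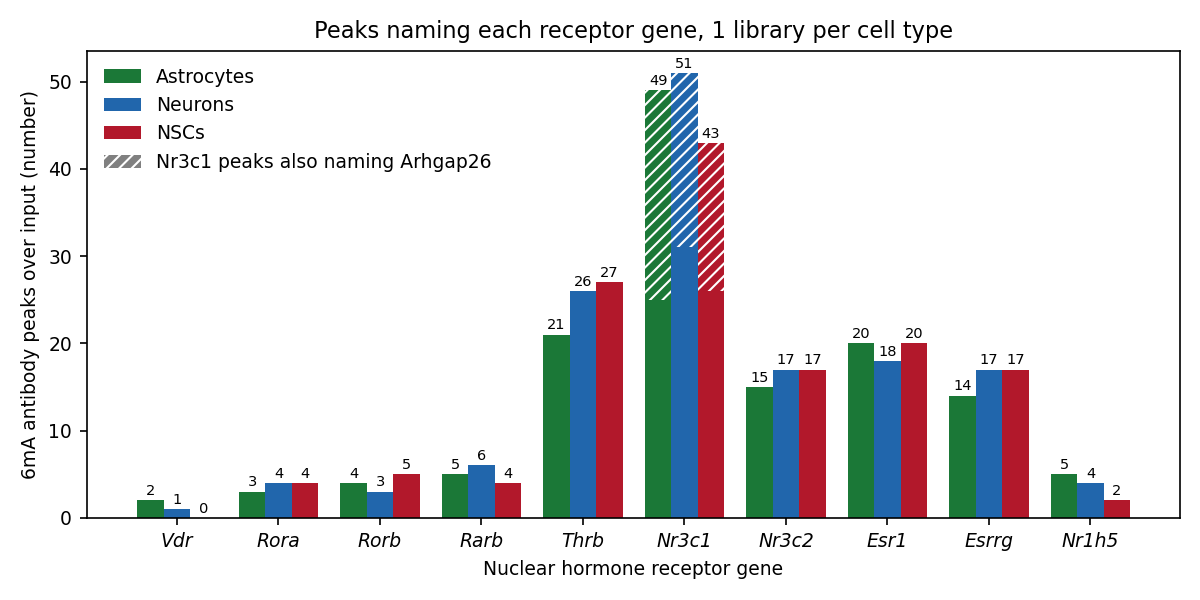
Number of 6mA antibody peaks over input (vertical axis) naming each receptor gene in Astrocytes, Neurons and NSCs, 1 library each; hatching marks Nr3c1 peaks that also name Arhgap26. Nr3c1 has the tallest bars (49, 51 and 43), and Vdr has no bar in NSCs.

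Nr3c1, the glucocorticoid receptor, had the most peaks, 49 in Astrocytes, 51 in Neurons and 43 in NSCs, but its annotation in the files reaches far past the gene. Its regions span 967 kb there, whereas the RefSeq gene is 122 kb long. Of its peaks, 24 in Astrocytes, 20 in Neurons and 17 in NSCs also name Arhgap26, which lies near Nr3c1 in GRCr8 and does not overlap it there. Values for Nr3c1 therefore include enrichment of its neighbours, and totals are given with and without it. Without Nr3c1 the other 9 genes held 89 peaks in Astrocytes, 96 in Neurons and 96 in NSCs. The files' extent was shorter than the full RefSeq gene for Rora (75.6 against 733 kb), Rarb (95.4 against 645 kb), Esrrg (220.8 against 618 kb) and Rorb (68.5 against 181 kb). For those genes upstream parts of the RefSeq gene may not be covered by the files' annotation.

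Per length, Nr1h5 stood above the other receptor genes. Lengths were taken from the RefSeq start nearest the gene's end to that end, with the full gene length for Nr3c2, and Nr3c1 was left out. Nr1h5 held 19.0 peaks per 100 kb in Astrocytes, 15.2 in Neurons and 7.59 in NSCs. The other 8 genes lay between 2.21 (Rorb) and 7.62 (Esr1) per 100 kb in Astrocytes and between 1.66 (Rorb) and 7.70 (Esrrg) in Neurons. In NSCs they lay between 0 (Vdr) and 7.81 (Thrb) per 100 kb, so there Thrb, Esrrg and Esr1 had a density as high as Nr1h5. The median gene of at least 20 kb held 2.79 peaks per 100 kb of RefSeq gene length in Astrocytes, 3.26 in Neurons and 2.78 in NSCs, with upper quartiles of 4.88, 5.74 and 4.88. On the same full gene length the median over the 9 receptor genes was 3.85 per 100 kb in Astrocytes, 2.75 in Neurons and 2.77 in NSCs. These lie above the median gene in Astrocytes, below it in Neurons and close to it in NSCs. On the lengths from the nearest start, the 9 genes had medians of 4.36, 4.94 and 4.94, above the median gene in each cell type. The median gene was not measured on such lengths, so where the receptor genes stand depends on the length used.

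Among the receptors that pair with a retinoid X receptor, Vdr, the receptor of active vitamin D, had few peaks. It had 2 in Astrocytes, 1 in Neurons and 0 in NSCs. Of genes at least 26.3 kb long 74.1% had a peak in NSCs, so a gene of such length without one is not rare. At an intronic site on chromosome 7 (139352007 to 139352769) Neurons had a peak of fold 22.1 and score 307. At the same site Astrocytes had a weaker peak, from 139352028 to 139352684, with fold 7.20 and score 55.5, close to the lowest score listed. NSCs had no peak there. The authors' deposited table gave this site as higher in Neurons than in NSCs (fold 28.01, score 347), higher in Astrocytes than in NSCs (fold 14.0, score 118) and higher in Neurons than in Astrocytes (fold 6.22, score 53.4). The order of Neurons, Astrocytes, NSCs thus held in all 3 pairings at this site, each from single libraries that the pairings share. Astrocytes had another intronic Vdr peak at 139373177 to 139373801 (fold 6.19), which the authors' deposited table listed as higher than in NSCs (fold 7.35). A further region at 139384350 to 139384735 was higher in Astrocytes than in NSCs in the authors' deposited table (fold 9.62), without a peak over input.

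Nr1h5, a relative of the bile acid receptor FXR that binds lanosterol in mouse, had 6 peak sites on chromosome 2 within 16.7 kb, and 4 of them had a region in a comparison list. At 205448377 to 205449381 all cell types had an intronic peak, with folds of 53.8 in Astrocytes, 40.1 in Neurons and 16.4 in NSCs. The authors' deposited table gave this site as higher in Astrocytes than in NSCs (fold 4.32) and higher in Neurons than in NSCs (fold 3.45). At 205450373 to 205451100 the folds were 44.2, 47.2 and 32.5 in Astrocytes, Neurons and NSCs, and the site was higher in Astrocytes than in NSCs in the authors' deposited table (fold 5.32). A site at 205436002 to 205436717 had a peak in Astrocytes (fold 19.8) and Neurons (8.89) and none in NSCs. It was higher in Astrocytes than in NSCs (fold 13.8) and in Neurons than in NSCs (fold 7.39) in the authors' deposited table. An exon and intron peak of Astrocytes at 205439508 to 205439944 (fold 9.52) was higher in Astrocytes than in Neurons in the authors' deposited table (fold 9.26). Neurons alone had a peak over another exon at 205451104 to 205451467 (10.7), and Astrocytes alone an intronic peak at 205452216 to 205452658 (9.08), neither with a comparison region. That Neuron peak begins just past the end of the site at 205450373 to 205451100, so its separation rests on where the calls end. No list named Nr1h5 in a region higher in NSCs.

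**Figure D2:**
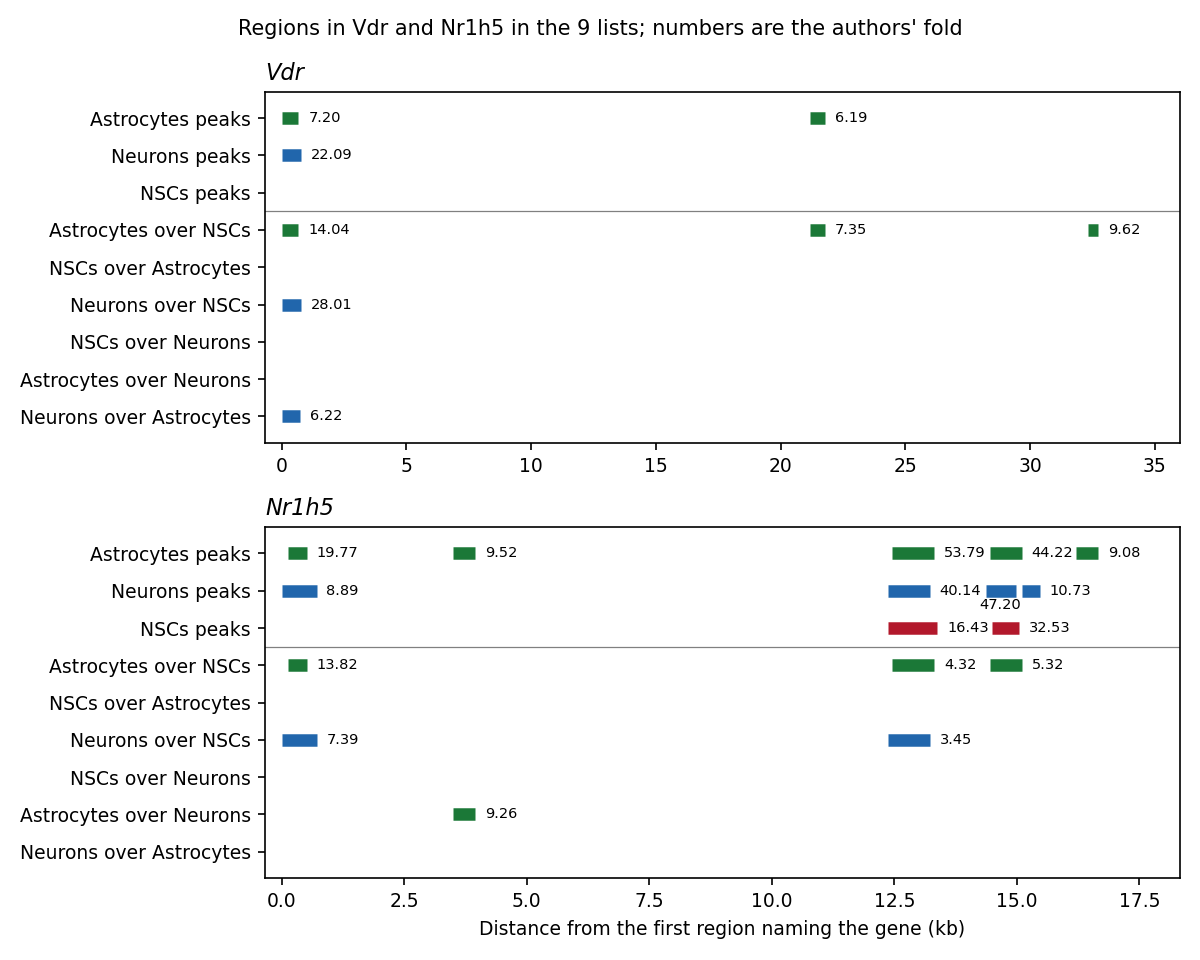
Regions of Vdr (top) and Nr1h5 (bottom) in the 3 peak lists and the 6 comparison lists (rows), by distance in kb from the first region naming the gene; bars are drawn to their width and the number is the authors' fold. The rows for NSCs over Astrocytes and NSCs over Neurons are empty for both genes.

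Rarb, a retinoic acid receptor that is itself induced by retinoic acid, held the same leading site in each cell type. At chromosome 15, 10163118 to 10163540, an intronic peak had folds of 48.2 in Astrocytes, 42.6 in Neurons and 49.9 in NSCs, and no comparison list held a region there. Rarb had 4 sites with a peak in every cell type among 7 in all, and every NSC peak of Rarb was among them. Regions higher in Astrocytes than in NSCs numbered 4, with 1 higher in NSCs. The largest of the 4 lay at 10177775 to 10178099, with fold 13.3 over NSCs in the authors' deposited table, where Astrocytes alone had a peak (10.5). The same region was higher in Astrocytes than in Neurons in the authors' deposited table (fold 13). In the opposite direction, a region at 10146891 to 10147191 was higher in NSCs than in Astrocytes (fold 11.96 in the authors' deposited table). It overlapped a region at 10146890 to 10147277 that was higher in NSCs than in Neurons (fold 11.1 in the authors' deposited table). Neither region lay at a peak over input. The largest region higher in Neurons than in NSCs lay at 10235208 to 10235531 (fold 13.6 in the authors' deposited table), without a peak over input.

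Thrb, the beta receptor of thyroid hormone, had 38 peak sites along 347 kb of chromosome 15, and 15 of them had a peak in every cell type. The strongest shared site by its lowest score lay in an intron at 8987495 to 8988131, with folds of 66.1 in Astrocytes, 51.2 in Neurons and 57.3 in NSCs. The largest Thrb folds in Astrocytes (73.8) and Neurons (53.3) lay at 9147666 to 9148925, where NSCs had 48.5. Neither site had a region in a comparison list. A comparison region lay at 10 of the 38 sites, and 4 of those 10 had a peak in every cell type. NSCs alone had a peak at 9131747 to 9132191 (fold 15.7), higher than in Astrocytes (15.9) and than in Neurons (14.2) in the authors' deposited table. A site at 9236464 to 9237282 had a peak in Neurons (30.2) and NSCs (14.9) and none in Astrocytes. It was higher in Neurons than in Astrocytes (fold 14.3) and in NSCs than in Astrocytes (fold 9.48) in the authors' deposited table. Thrb regions numbered 6 for Astrocytes over NSCs and 6 for NSCs over Astrocytes. They numbered 5 for Neurons over NSCs and 2 for the opposite direction, and 4 for Astrocytes over Neurons with 4 for the opposite direction. The largest of them by pair and direction not yet given were 11.9 for Astrocytes over NSCs (8977176 to 8977555), 10.99 for Neurons over NSCs (8912721 to 8913183) and 14.3 for Astrocytes over Neurons (8904684 to 8905055) in the authors' deposited table. Of these, only the region for Neurons over NSCs lay at a peak over input. A region within 2 kb downstream of the gene (8889878 to 8890178) was higher in Astrocytes than in NSCs (7.97) and than in Neurons (7.80) in the authors' deposited table, without a peak over input.

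Of the receptors without a classical hormone, Rora, known for its part in Purkinje cell development, had 8 peak sites within 75.6 kb of chromosome 8. A single site was shared by all cell types, at 75547579 to 75548137, with folds of 25.8 in Astrocytes, 38.8 in Neurons and 25.6 in NSCs, and no comparison region lay there. The 6 sites found in 1 cell type had a median fold of 9.80. Largest comparison folds of Rora in the authors' deposited table were 11.6 for Astrocytes over NSCs (75530311 to 75530815) and 11.96 for NSCs over Astrocytes (75542509 to 75542854). They were 9.92 for Neurons over NSCs (75528963 to 75529267), 7.26 for NSCs over Neurons (75583469 to 75583840) and 10.4 for Astrocytes over Neurons (75592905 to 75593234) in the authors' deposited table. These 5 regions lie at 5 different places in the gene, and only the region for NSCs over Astrocytes lay at a peak over input.

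Rorb, which marks layer 4 neurons of the neocortex, had 6 peak sites on chromosome 1. Its largest folds lay at 234428825 to 234429378, with 8.91 in Astrocytes, 26.4 in Neurons and 22.9 in NSCs, but no comparison list held a region there. The merged site with the highest lowest score was the broad stretch from 234378619 to 234381367. Its largest folds were 6.99, 11.9 and 9.21 in Astrocytes, Neurons and NSCs. The broad NSC peak joined it, since the Neuron peak (234379142 to 234379605) ended before the Astrocyte peaks began (234379874). The region of that Neuron peak was higher in Neurons than in Astrocytes in the authors' deposited table (fold 5.24). At 234372541 to 234373021 Neurons (10.8) and NSCs (15.2) had a peak and Astrocytes had none. The site was higher in NSCs than in Astrocytes (15.9) and in Neurons than in Astrocytes (14.3) in the authors' deposited table. An exon peak at 234440663 to 234441044 was found in NSCs alone (12.5) and was higher there than in Astrocytes in the authors' deposited table (12.1). Astrocytes had their own intronic peak at 234408147 to 234408487 (7.48), higher than in NSCs (7.97) and than in Neurons (7.80) in the authors' deposited table. No Rorb region differed between Neurons and NSCs in either direction.

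Esrrg, an oestrogen-related receptor that activates genes of oxidative metabolism without a known natural ligand, held the largest NSC fold among the 10 genes. The intronic site at chromosome 13, 106575159 to 106576118, had folds of 60.5 in Astrocytes, 88.6 in Neurons and 85.5 in NSCs, with scores of 1656, 2279 and 1798. It had no region in a comparison list. Of 24 Esrrg sites, 9 had a peak in every cell type. Among them were a site on a CpG island shore at 106521126 to 106521945, with folds of 26.3, 30.2 and 31.8 in Astrocytes, Neurons and NSCs, and an exon and intron site at 106678932 to 106679586, with 18.8, 21.7 and 12.9. The promoter had a peak in Astrocytes alone (106458755 to 106459212, fold 10.2, score 60.4). The authors' deposited table gave that promoter region as higher in Astrocytes than in NSCs (fold 10.4, score 54.7), and neither list of Astrocytes and Neurons held it. Its score was below the median score of 87.4 over all peaks. Largest other comparison folds of Esrrg in the authors' deposited table were 12.5 for NSCs over Astrocytes (106508495 to 106508847), 11.1 for NSCs over Neurons (106603696 to 106604225) and 10.1 for Astrocytes over Neurons (106603827 to 106604122). They were 10.4 for Neurons over Astrocytes (106489115 to 106489401) and 9 for Neurons over NSCs (106549848 to 106550225) in the authors' deposited table. The region for Neurons over Astrocytes lay at no peak over input.

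**Figure D3:**
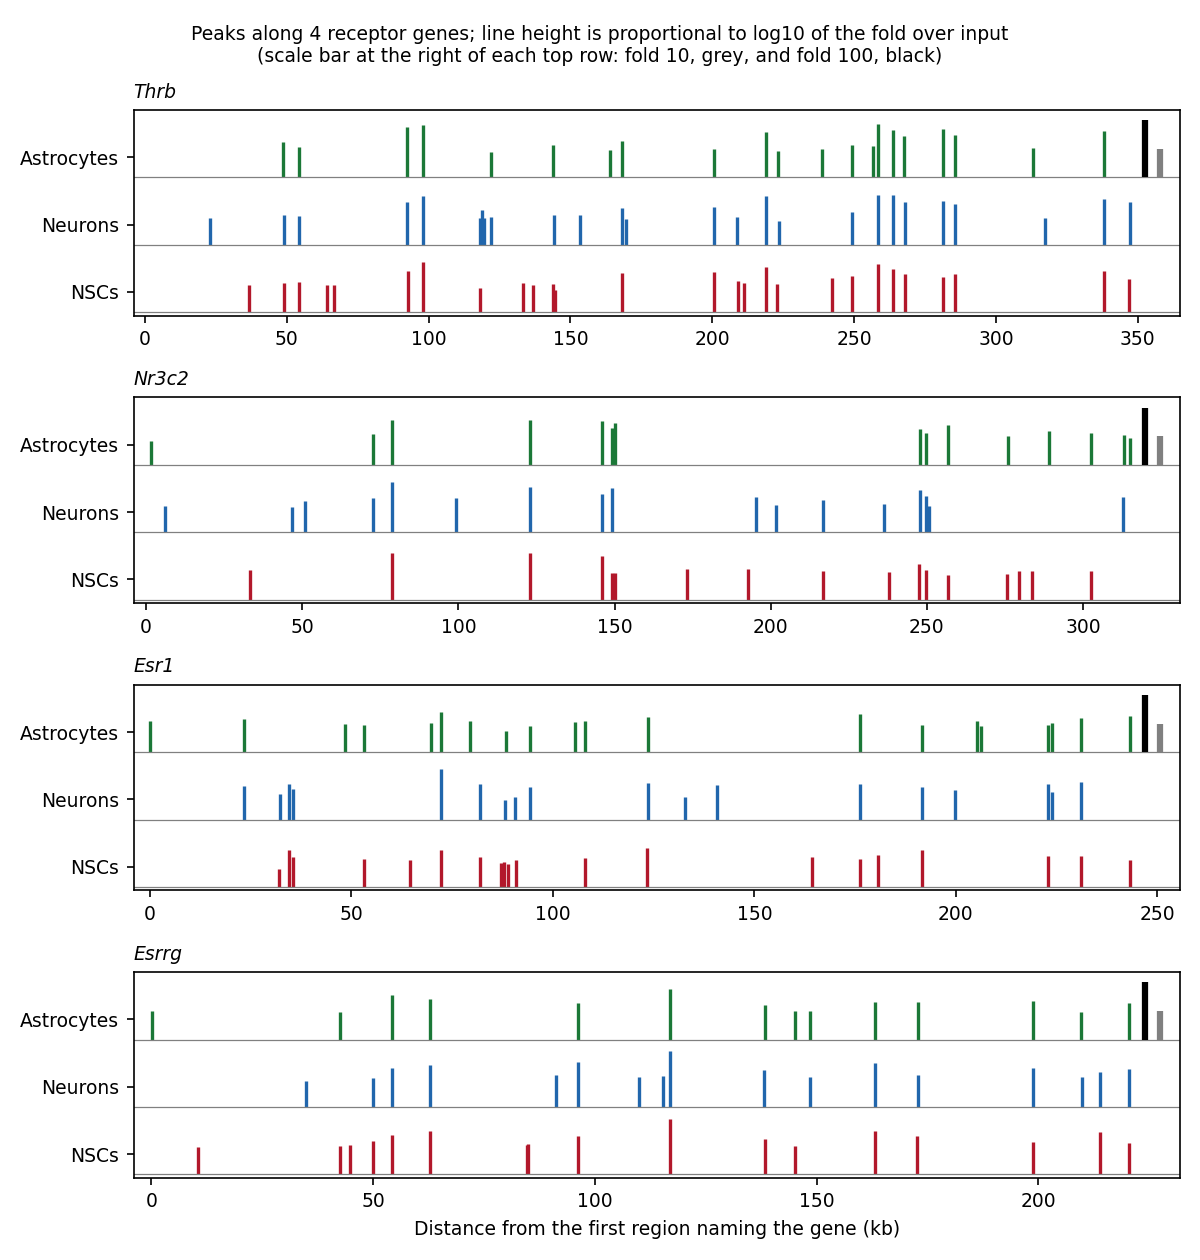
Peaks over input along Thrb, Nr3c2, Esr1 and Esrrg (panels) in Astrocytes, Neurons and NSCs (rows), by distance in kb from the first region naming the gene; line height is proportional to the log10 of the authors' fold. The Esrrg site with folds of 60.5, 88.6 and 85.5 stands in all rows, while the Thrb site with folds of 30.2 in Neurons and 14.9 in NSCs has no line in Astrocytes.

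The steroid receptors came next. Nr3c1, which binds glucocorticoids, had its largest folds in stretches that also name Arhgap26. These were 128 in Astrocytes at chromosome 18, 31960407 to 31960922, 101 in Neurons at 32178593 to 32179359 and 72.9 in NSCs at 32178700 to 32179407. Among peaks that name Nr3c1 alone the largest folds lay at 32542067 to 32542915, with 51.5 in Astrocytes, 30.0 in Neurons and 36.4 in NSCs. That site lies farther than 1 RefSeq gene length from either end of the annotation. A gene of that length at either end would not hold it, although the peaks name no other gene. Over 1 RefSeq gene length (122 kb) from the high-coordinate end, which the files annotate as the promoter, 5, 5 and 6 peaks named Nr3c1 alone in Astrocytes, Neurons and NSCs. Over the same length from the low-coordinate end there were 2, 2 and 1. A Neuron peak at 32607746 to 32608078, within the high-coordinate stretch, also names Spry4, and in GRCr8 Spry4 lies on the far side of Arhgap26 and Fgf1 from Nr3c1. Which end holds the RefSeq gene was therefore not established, and the promoter class of Nr3c1 is given as deposited. At the low-coordinate end Neurons had an exon and intron peak (31737630 to 31738080, fold 9.08). At the high-coordinate end NSCs alone had a region classed as promoter (32704060 to 32704519, fold 14.4, score 67.2). A peak at 32702514 to 32703090 was found in every cell type, with folds of 19.2 in Astrocytes, 11.6 in Neurons and 17.1 in NSCs. At 32698953 to 32699537 Neurons (18.4) and NSCs (25.8) had a peak and Astrocytes had none. There the authors' deposited table gave NSCs over Astrocytes a fold of 10.96 and Neurons over Astrocytes a fold of 6.65. A Neuron peak at 32592213 to 32592691 (15.8) was higher than in Astrocytes (13.97) and than in NSCs (11.4) in the authors' deposited table.

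Elsewhere in the long Nr3c1 annotation, the largest region for Astrocytes over NSCs (17.3, 32138596 to 32139080) in the authors' deposited table also named Arhgap26. That region lay at no peak over input. For Astrocytes over Neurons a pair of regions tied at 13 in the authors' deposited table, 32144553 to 32144895, which also names Arhgap26, and 32364343 to 32364921, which names Nr3c1 alone. The largest for NSCs over Neurons (14.9, 32219660 to 32220156) and for NSCs over Astrocytes (11.2, 32486006 to 32486488) in the authors' deposited table named Nr3c1 alone. Like the region at 32364343 to 32364921, they lie farther than 1 RefSeq gene length from either end of the annotation. Naming Nr3c1 alone therefore does not place them in the RefSeq gene. For Neurons over NSCs 3 regions tied at 12.3 in the authors' deposited table. They were 31790765 to 31791254, which also names LOC100911367, 31887643 to 31887886, which also names Arhgap26, and 32348442 to 32348818, which also names Fgf1.

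Nr3c2, the mineralocorticoid receptor, which binds corticosterone with high affinity and is abundant in hippocampus, was the receptor with peaks in an annotated CpG island. At chromosome 19, 34760652 to 34761188, Neurons had a peak over the promoter and first exon with fold 17.3 and score 145. Astrocytes had one at 34760865 to 34761237 with fold 11.3 and score 84.4, and NSCs had none. The authors' deposited table gave the promoter as higher in Neurons than in NSCs (fold 7.60, score 60.4), and did not list it for Astrocytes over NSCs. Astrocytes had another promoter peak outside the island at 34762936 to 34763200 (8.48, score 55.8). All of these promoter regions also name LOC103694321, so they cannot be assigned to Nr3c2 alone.

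Inside Nr3c2, an intronic site at 34643046 to 34643609 had a peak in Neurons alone (fold 17.3), with a fold of 20.97 over NSCs and 20.8 over Astrocytes in the authors' deposited table. It gave the largest receptor fold for Neurons over Astrocytes in the authors' deposited table. The strongest shared site lay at 34526330 to 34527253, with folds of 37.7 in Astrocytes, 55.9 in Neurons and 43.4 in NSCs, and the largest Astrocyte fold (38.2) at 34570512 to 34571361. Of 30 sites, 6 had a peak in every cell type. Nr3c2 regions numbered 7 for Neurons over NSCs and 2 for NSCs over Neurons. They numbered 4 for Astrocytes over NSCs with 4 for the opposite direction, and 5 for Astrocytes over Neurons with 6 for the opposite direction. The largest regions in the remaining directions were 10.6 for Astrocytes over NSCs (34447995 to 34448280), 13.3 for NSCs over Astrocytes (34640711 to 34640935), 11.1 for NSCs over Neurons (34727349 to 34727796) and 14.3 for Astrocytes over Neurons (34750509 to 34750881) in the authors' deposited table. Of these, the region for Astrocytes over NSCs lay at no peak over input.

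Esr1, the alpha receptor of oestrogen, had the fewest regions higher in Astrocytes relative to the other direction among genes with more than 5 regions in a pair. Its regions numbered 2 for Astrocytes over NSCs against 8 for NSCs over Astrocytes, and 2 for Astrocytes over Neurons against 7 for Neurons over Astrocytes. They numbered 3 for Neurons over NSCs and 4 for NSCs over Neurons. The share of Esr1 regions higher in Astrocytes was 20.0% against NSCs (exact Clopper-Pearson 95% interval 2.52% to 55.6%), where 40.3% of all regions were. Against Neurons it was 22.2% (2.81% to 60.0%), where 29.5% of all regions were. Both intervals held the share over all regions. Peaks over input did not differ in number in the same way, with 20 in Astrocytes, 18 in Neurons and 20 in NSCs. The strongest shared site lay on chromosome 1 at 41412864 to 41414171, with folds of 25.9 in Astrocytes, 59.2 in Neurons and 19.4 in NSCs, and no comparison list held a region there. An exon and intron site at 41532659 to 41533297 had folds of 8.91, 13.8 and 19.3 in Astrocytes, Neurons and NSCs. The authors' deposited table gave it as higher in NSCs than in Astrocytes (11.9) and than in Neurons (8.10). The largest NSC fold (22.4) lay at 41464474 to 41464917. Astrocytes alone had an exon peak at 41341286 to 41341642 (12.2, score 61.5). The largest comparison folds were 16.9 for Neurons over Astrocytes (41481914 to 41482350), 15.3 for Astrocytes over Neurons (41546395 to 41546787) and 13.3 for Astrocytes over NSCs (41420578 to 41420874) in the authors' deposited table. They were 10.7 for Neurons over NSCs (41381157 to 41381542) and 8.65 for NSCs over Neurons (41579550 to 41579947) in the authors' deposited table, and neither of these regions lay at a peak over input.

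The comparison lists were then counted over all 10 receptors. For Astrocytes over NSCs all 10 had a region (40 regions), where 20.4% of protein-coding genes did, or 39.4% of those at least 26.3 kb long. For NSCs over Astrocytes 8 did (36 regions), against 24.3% and 46.3%. For Neurons over NSCs 9 did (30 regions), against 25.5% and 48.0%, and for NSCs over Neurons 7 did (22 regions), against 22.5% and 43.0%. For Astrocytes over Neurons 9 did (25 regions), against 16.8% and 33.0%, and for Neurons over Astrocytes 7 did (34 regions), against 28.0% and 51.3%. Receptor genes have a median length well above the 26.3 kb limit, so neither share is matched to them on length. A peak of the higher cell type lay at 67.5%, 72.2%, 86.7%, 63.6%, 68.0% and 79.4% of receptor regions in the same order of lists. Over all regions these shares were 80.2%, 76.6%, 84.3%, 74.3%, 78.1% and 76.6%.

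Of receptor regions that differed between Astrocytes and NSCs, 52.6% were higher in Astrocytes (exact Clopper-Pearson 95% interval 40.8% to 64.2%, 76 regions), against 40.3% of all regions. Without Nr3c1 it was 50.0% (36.1% to 63.9%). Between Neurons and NSCs 57.7% were higher in Neurons (43.2% to 71.3%, 52 regions), against 53.8% of all regions, and 60.0% without Nr3c1 (42.1% to 76.1%). Between Astrocytes and Neurons 42.4% were higher in Astrocytes (29.6% to 55.9%, 59 regions), against 29.5% of all regions, and 43.6% without Nr3c1 (27.8% to 60.4%). Without Nr3c1 each interval held the share over all regions. Receptor regions all name a gene, and most regions do not. Among all regions that name a gene, the shares were 42.0%, 54.8% and 29.8% in the same order of pairs. Each interval held the share over such regions, both with and without Nr3c1. These intervals cover counting error only, and the 3 pairs share libraries. Both directions of a pair were called separately by the authors.

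**Figure D4:**
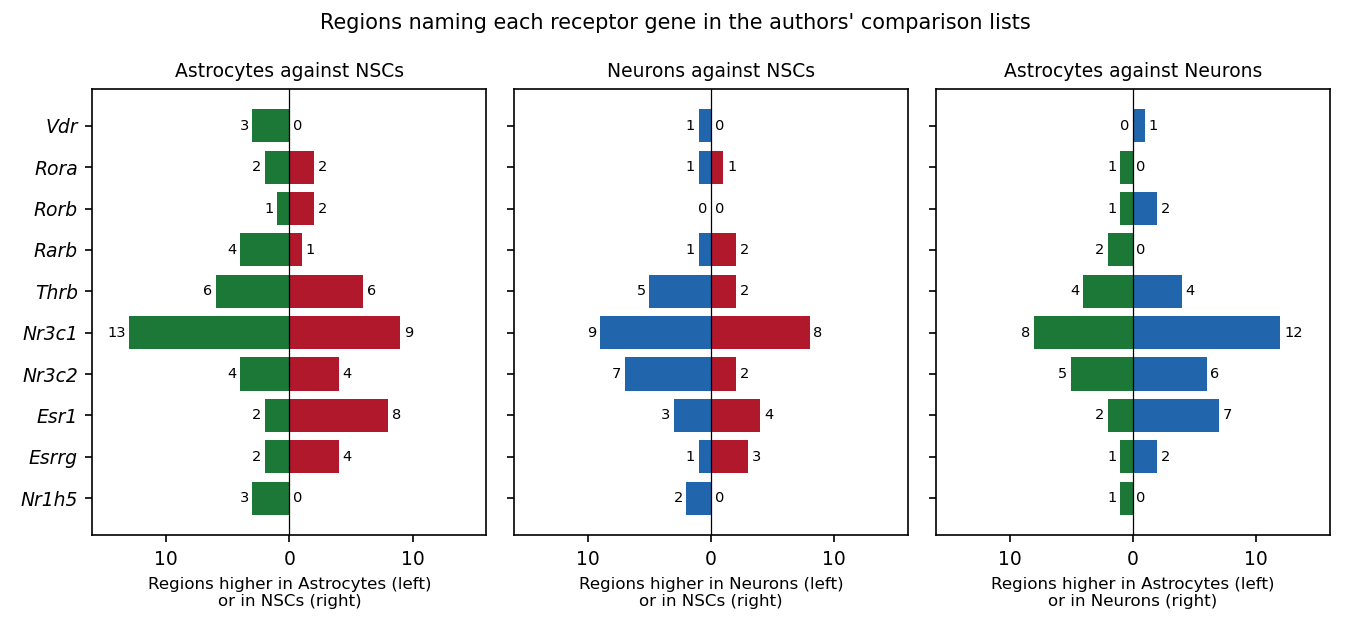
Number of regions naming each receptor gene in the authors' comparison lists, with the first-named cell type to the left of zero and the second to the right. Vdr and Nr1h5 have bars on the left alone against NSCs, and Esr1 has 8 regions higher in NSCs and 7 higher in Neurons against 2 higher in Astrocytes in each pair.

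Receptor peaks found in every cell type had larger median folds than those found in 1, as over all peaks. Merged over the 3 lists, the receptor peaks made 237 sites, of which 65 (27.4%) had a peak in 3 cell types and 121 in 1. All peaks merged in this way made 220974 sites, of which 52734 had a peak in 3 cell types and 122763 in 1. Without Nr3c1, which made 85 of the sites, 46 of 152 (30.3%) had a peak in 3 cell types and 73 in 1. Of Astrocyte receptor peaks, 47.1% overlapped a peak of both other cell types, as did 43.5% in Neurons and 48.2% in NSCs. The shares were 45.8%, 38.6% and 43.6% of all peaks, and 47.3%, 40.0% and 46.1% of all peaks that name a gene. Without Nr3c1 the receptor shares were 50.6%, 46.9% and 50.0% in Astrocytes, Neurons and NSCs. In Astrocytes, receptor peaks found in both other cell types had a median fold of 20.7 and those found in neither 10.5, where all peaks had 17.3 and 10.2. In Neurons these medians were 25.9 and 9.46 for receptor peaks and 19.3 and 10.6 for all peaks. In NSCs they were 20.6 and 10.6 for receptor peaks and 16.7 and 10.0 for all peaks. A comparison region lay at 16 of the 65 receptor sites found in every cell type (24.6%) and at 57 of the 121 found in 1 (47.1%), close to 24.1% and 51.8% of all merged sites of these kinds. Sites found in 1 cell type thus rest on weaker peaks, whose presence in a repeated library was not tested.

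**Figure D5:**
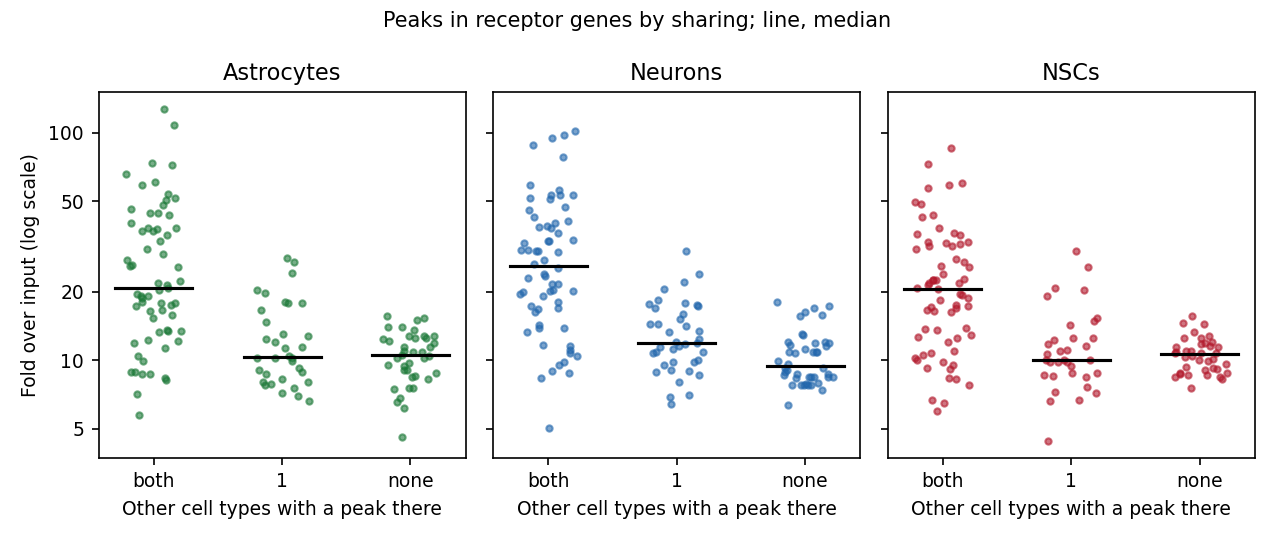
Authors' fold over input (log scale) of receptor peaks in Astrocytes, Neurons and NSCs (panels), by the number of other cell types with an overlapping peak; points are peaks and lines are medians. Medians of peaks found in both other cell types are 20.7, 25.9 and 20.6, above the 10.5, 9.46 and 10.6 of peaks found in neither.

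Related gene lists were read in the same way. Of 39 other nuclear receptors, 23 had a peak in Astrocytes, 24 in Neurons and 24 in NSCs, and their median length was 27.5 kb. Over all named genes 43.1%, 46.1% and 42.8% had a peak in these cell types. Rarg, another retinoic acid receptor, led with Esr2, the beta receptor of oestrogen, and Nr1h4, the bile acid receptor FXR. Their largest folds in Astrocytes, Neurons and NSCs were 99.2, 87.9 and 120.2 for Rarg, 99.4, 50.1 and 45.3 for Esr2, and 49.9, 57.6 and 53.9 for Nr1h4. Of the 39, 9 had no region in any list, among them Thra, the alpha receptor of thyroid hormone, a gene named here after its values were seen. No other nuclear receptor had a promoter peak in every cell type.

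Of 16 coregulators, the proteins that receptors recruit to chromatin, 12 had a peak in Astrocytes, 14 in Neurons and 12 in NSCs. Their median length was 114 kb. Over all named genes 43.1%, 46.1% and 42.8% had a peak in these cell types. Among genes at least 26.3 kb long the shares were 73.9%, 77.2% and 74.1%. The largest folds in Astrocytes were those of Med1, a Mediator subunit (52.9), Carm1, an arginine methyltransferase (48.2), and the coactivator Ncoa2 (34.2). In Neurons they were those of Carm1 (62.2), Med1 (45.7) and the coactivator Ppargc1a (42.2). In NSCs Ppargc1a (56.4) came before Med1 and Carm1 (43.4 each). A region higher in Astrocytes than in NSCs was found in 10 of 16 coregulators and a region higher in NSCs than in Astrocytes in 7. The counts were 9 for Neurons over NSCs, 7 for NSCs over Neurons, 3 for Astrocytes over Neurons and 10 for Neurons over Astrocytes.

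Of 22 genes of ligand metabolism and transport, 14 had a peak in each of Astrocytes, Neurons and NSCs, and their median length was 20.7 kb. Over all named genes 43.1%, 46.1% and 42.8% had a peak in these cell types. Cyp26b1, which breaks down retinoic acid, had the largest folds, 128 in Astrocytes, 136 in Neurons and 108 in NSCs. Slco1c1, a transporter of thyroid hormone, had 113, 133 and 80.2 in Astrocytes, Neurons and NSCs. Cyp19a1, the aromatase that makes oestrogen, had 61.2 in Astrocytes, and Aldh1a3, a retinoic acid synthesising enzyme, had 55.2 in Neurons and 61.2 in NSCs. Cyp26b1 and Hsd11b1, which regenerates active glucocorticoid, had a promoter peak in every cell type, a point noted after their values were seen. A comparison region was found in 5 of 22 for Astrocytes over NSCs, 3 for NSCs over Astrocytes, 6 for Neurons over NSCs, 3 for NSCs over Neurons, 5 for Astrocytes over Neurons and 9 for Neurons over Astrocytes. For the other nuclear receptors the same counts were 10, 16, 11, 13, 8 and 14 of 39. The shares of all named genes with such a region were 20.4%, 24.3%, 25.5%, 22.5%, 16.8% and 28.0% in the same order of lists, and 39.4%, 46.3%, 48.0%, 43.0%, 33.0% and 51.3% among genes at least as long as the shortest receptor gene. The lists differ in gene length, and none of their counts was tested against these shares.

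The authors' deposited table of KEGG pathways gave the thyroid hormone signalling pathway 81 of 118 genes with a peak in Astrocytes (adjusted p = 0.00503), 85 in Neurons (0.0125) and 75 in NSCs (0.0238). Of the receptors, 2 are in that pathway, Thrb and Esr1. For the oestrogen signalling pathway, the authors' deposited table gave 79, 77 and 76 of 131 genes and adjusted p-values of 0.0301, 0.170 and 0.0670 in Astrocytes, Neurons and NSCs. In the authors' deposited table of GO terms, steroid hormone receptor activity had 36, 38 and 37 of 56 genes with a peak in Astrocytes, Neurons and NSCs, with adjusted p-values of 0.856, 0.948 and 0.879. None of the GO terms on these hormones passed 0.05 in the authors' deposited table, of 93, 93 and 91 terms in Astrocytes, Neurons and NSCs. How those tables treated gene length was not stated. Raw p-values of steroid hormone receptor activity were 0.0372, 0.0446 and 0.0289 in Astrocytes, Neurons and NSCs in the authors' deposited table. Steroid hormone biosynthesis had 53 of 80 genes with a peak in each cell type, with adjusted p-values of 0.0341, 0.119 and 0.0417 in Astrocytes, Neurons and NSCs in the authors' deposited table. Thyroid hormone synthesis had 48, 47 and 40 of 72 genes, with adjusted p-values of 0.0391, 0.153 and 0.242, in the authors' deposited table.

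By their regions per 100 kb over the 9 lists, the genes most like the mean of the 10 receptors were Meis1, a homeobox gene, Ankrd36, Nxph1, a neurexin ligand, Mybpc1 and Alpk3. Their Pearson correlation with that mean was 0.996, 0.994, 0.993, 0.991 and 0.991 over 9 lists, among 2014 candidate genes. The lists share libraries, the peak lists hold far more regions than the comparison lists for any gene, and the mean includes the long Nr3c1 annotation. These values describe likeness and carry no test.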

How the data were processed

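Rat genomic DNA was immunoprecipitated with a 6mA antibody and sequenced, 1 library each for Astrocytes, Neurons and NSCs, with inputs for Neurons and NSCs, per the labels. Reads were aligned with BWA, per the submitters' processing notes. The sources used here give neither the genome build nor the peak caller's version. The authors deposited read counts and the percent mapped per library, of which 1 row, an astrocyte input, was not used here. The authors' peak lists carry a score (10 times the −log10 of p, per the file headers) and a fold (a ratio of library to input). The 6 deposited comparison lists carry a fold and score of 1 immunoprecipitated library over another, 1 list per direction. The authors' GO and KEGG tables give p-values and adjusted p-values per term.

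Reading the lists left out 6 blank lines. Regions were assigned to genes by the deposited annotation classes, and peaks in separate lists were called shared at an overlap of at least 1 bp. Gene lengths and promoters came from RefSeq on GRCr8, by symbol. Intervals are exact Clopper-Pearson 95% intervals for counting error. With 1 library per cell type no test was run. Assignment and overlap were tested on simulated data. Python 3.11.15, pandas 2.3.3 and scipy 1.17.1 were used.

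Members and gene lists were chosen with earlier results of these data known. Sites named were, per receptor, the largest fold in each list, every region in a promoter, exon, flank or CpG class, and the shared site with the highest lowest score. From the 3 gene lists, the 3 genes with the largest fold per peak list were named. Alternatives were a score or fold at or above the median, gene body classes only and an overlap of 50%. Leaving out Nr3c1 was added after seeing the data.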

Additional observations from a re-analysis of the deposited data

How the results depend on the processing

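With gene body classes only, 24 of 24 counts and percents stayed within 1.5 times the count, or within the interval of the percent, as deposited. So did 3 of 3 shared percents at an overlap of 50% of the peak. With scores at or above the median (87.4 for peaks, 62.4 for comparisons), receptor peaks fell to 72 in Astrocytes, 85 in Neurons and 76 in NSCs. Comparison regions then numbered 15 for Astrocytes over NSCs (in 6 genes), 19 for NSCs over Astrocytes, 15 for Neurons over NSCs, 9 for NSCs over Neurons (in 4 genes), 10 for Astrocytes over Neurons and 14 for Neurons over Astrocytes. Peaks in both other cell types made up 68.1%, 57.6% and 65.8% in Astrocytes, Neurons and NSCs. With folds at or above the median (12.1 and 9.53), peaks numbered 79, 82 and 69 in Astrocytes, Neurons and NSCs, and 52.4% in Neurons and 62.3% in NSCs were in both other cell types. Comparison regions numbered 22, 17, 14, 12, 13 and 14 in the same order of lists. Stricter limits keep fewer regions by construction. Without Nr3c1, chosen after seeing the data, peaks numbered 89 in Astrocytes and 96 in Neurons, regions for NSCs over Neurons 14 and regions for Neurons over Astrocytes 22. The 3 percents of regions higher in the first cell type stayed within their intervals under every alternative run, but these intervals are wide. For Astrocytes against NSCs (40.8% to 64.2%) the percent higher in Astrocytes was 52.6% as deposited. With scores at or above the median it was 44.1%, so the majority direction changed. No paired analysis was possible because each cell type had 1 immunoprecipitated library. With 1 library each and no repeat, the spread between libraries of 1 cell type is unknown.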

Other observations

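Folds of receptor regions in the comparison lists repeated from a small set of values. In the authors' deposited table, the share of receptor regions with a fold among the 10 commonest of its list was 35.0% for Astrocytes over NSCs, 44.4% for NSCs over Astrocytes, 23.3% for Neurons over NSCs, 40.9% for NSCs over Neurons, 44.0% for Astrocytes over Neurons and 29.4% for Neurons over Astrocytes. Over all regions of the authors' deposited table these shares were 32.4%, 35.6%, 28.2%, 39.0%, 36.4% and 34.1% in the same order, so the receptors' share was higher in 4 of the 6 lists and lower in 2. In the peak lists the share was 15.2% of receptor peaks in Astrocytes, 14.3% in Neurons and 10.1% in NSCs, against 25.4%, 26.8% and 26.4% of all peaks. The Thrb and Rorb regions of fold 15.9 for NSCs over Astrocytes share such a value in the authors' deposited table, as do the Nr3c2 and Thrb regions of fold 14.3 for Astrocytes over Neurons. The order of receptors by largest comparison fold is therefore tied in places.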
